A study of Mus musculus with 249 samples.

Results

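The mouse genes whose symbol is Zfp followed by a digit were followed in whole brains of an F2 intercross. They were chosen by name alone: 156 probes whose single gene symbol had this form, naming 137 genes, among 13645 probes with 1 gene symbol and 23388 probes in all. Of these genes 132 lie on autosomes and 5 on the X chromosome, with 27 on chromosome 7, 17 on chromosome 17 and 10 on chromosome 8. The animals form 1 group, F2 females and males of C57BL/6J and C3H/HeJ parents, both on an ApoE null background, fed a high fat Western diet between 8 and 24 weeks of age. Each animal was measured on 1 array, its RNA in Cy3 against a pool in Cy5 that held an equal share of RNA of every sample. Each value is the log10 of an animal's signal over that of the pool. A step of 0.301 is a factor of 2, and a value ranks animals for a gene but not genes against each other. The labels give no animal's sex, genotype or array batch, and no other group to set against these brains.

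Most Zfp genes encode proteins with tandem C2H2 zinc fingers that bind DNA, and in mice many of them carry a KRAB domain that recruits the corepressor Trim28 to silence transposable elements and nearby genes. Such KRAB genes arose by repeated local duplication and lie in clusters that differ in gene content between mouse strains. The symbol also covers unrelated proteins, among them the RNA-binding proteins Zfp36, Zfp36l1 and Zfp36l2, which have CCCH fingers and bring about decay of messages with AU-rich elements.

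The array of animal 144 is left out by the rule that defines the set, which leaves 248 arrays. All 156 Zfp probes were measured on at least 90% of them, 149 on every one, and no Zfp value lay at an end of the scale. Arrays still differed in how far they stood from the others. Animal 178 held the lowest value of 47 of the 137 Zfp genes, animal 213 of 15 and animal 336 of 13. By probes, animal 178 held the lowest value of 32.1% of the Zfp probes and of 17.6% of all probes with 1 symbol. For animal 213 it was 12.2% against 16.1%, and for animal 336 8.97% against 8.51%. The main counts are therefore also given without these 3 animals.

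The SD of Zfp probes over animals had a median of 0.0663, against 0.0561 over the 13288 other probes with 1 symbol. An SD of at least 0.1 was reached by 22 of 156 Zfp probes (14.1%), against 9.37% of all probes with 1 symbol. Without the 3 animals the count was 18 of 156, against 7.52%. After removal of the first 5 principal components of all probes it was 6 of 156, against 4.28%, so the higher Zfp share was not seen there. The medians of related lists were lower than that of the Zfp probes. Of the Zbtb genes, zinc finger proteins with a BTB domain, 1 of 28 probes reached 0.1 and the median SD was 0.0467. Of the Zscan and Zkscan genes, which carry a SCAN domain, 0 of 13 probes reached it, with a median of 0.0490. The 12 genes of the KRAB corepressor list, measured by 14 probes, had a median of 0.0594 and 0 probes at 0.1. Within this list Trim28 had an SD of 0.0584 and Morc3, a silencing factor, the highest, 0.0960. These lists are set side by side as descriptions, and no difference between them was tested.

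**Figure D1:**
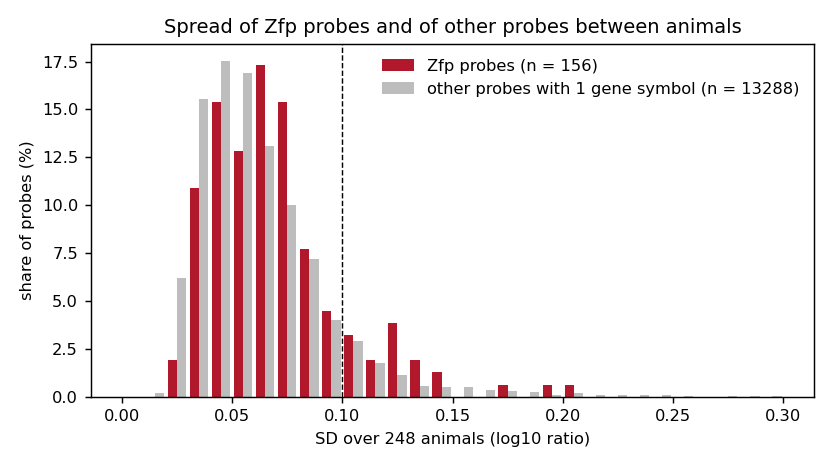
Share of probes (%) by SD over 248 animals (log10 ratio), for Zfp probes and for the other probes with 1 gene symbol; the dashed line marks 0.1. The Zfp probes are shifted to larger SD, with a median of 0.0663 against 0.0561, and 35 other probes lie beyond the end of the axis at 0.3.

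By gene, with the probes of a gene averaged, the 2 Zfp genes that varied most stood apart from the rest. Zfp24, a factor known in mice to be required for myelination by oligodendrocytes, ran from -0.800 over a median of 0.0216 to 0.342, with an SD of 0.203 ± 0.0109 (jackknife SE, n = 248). Zfp871 ran from -0.564 over 0.0432 to 0.394, with an SD of 0.199 ± 0.00707. Between the 5th and the 95th percentile of animals these are 4.45-fold and 4.10-fold ranges. Both had a long group of animals far below the pool.

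A further group had SDs between 0.108 and 0.141. It held Zfp934, Zfp957, Zfp423, Zfp574, Zfp800, Zfp758, Zfp219, Zfp97, Zfp433, Zfp120, Zfp994, Zfp60 and Zfp39, in order of falling SD. The probes averaged for Zfp39 differed, with SDs of 0.179 and 0.0605, and by probe the wider one ranked next after Zfp871. Zfp423, a transcription factor required for growth of the cerebellum in mice, ran from -0.457 over 0.00731 to 0.309, a 2.87-fold range between the 5th and 95th percentiles. For Zfp957 and Zfp800 few animals lay far out: the excess kurtosis was 22.4 and 18.0, and Zfp957 reached both -0.990 and 1.05.

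The narrowest Zfp genes were Zfp653 (SD 0.0248), Zfp36 (0.0249), Zfp93 (0.0287), Zfp36l3 (0.0287) and Zfp346 (0.0301), the last a protein that binds double-stranded RNA. The value of Zfp93 is that of averaged probes, whose own SDs were 0.0351 and 0.0324. Zfp36, tristetraprolin, stayed between -0.0675 and 0.117. Its paralog Zfp36l2 had an SD of 0.0322. Zfp36l1 varied more, with an SD of 0.0750 and values from -0.498 over -0.0474 to 0.122. The CCCH genes thus lay mostly at the narrow end.

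Discrete levels were sought by fitting 3 normal components with weights of 25%, 50% and 25%, the shares of genotypes at 1 locus of an F2, and setting them against 1 normal. A probe was called discrete where the Bayesian information criterion (BIC) improved by more than 10, the distance between the outer means was at least 2 SD of a component and the excess kurtosis was under 0. Of the 151 autosomal Zfp probes 3 were called (1.99%), against 1.26% of all 12287 autosomal probes with 1 symbol. The Zfp share was thus near that of all probes, and the 3 probes are described one by one. They were Zfp273 and Zfp934 on chromosome 13 and Zfp871 on chromosome 17. The same 3 were called without the 3 animals named above. With animal 144 included Zfp273 was no longer called, with a BIC gain of 16.0.

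The called probe of Zfp273 ran from -0.281 over 0.0324 to 0.263. Its level means were -0.145 in 70 animals, 0.0427 in 128 and 0.173 in 50, with a within-level SD of 0.0438 and a BIC gain of 51.6. The high level was 2.08-fold the low one. The low animals formed a separate peak, while the middle and high ones ran into each other.

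Zfp934 ran from -0.342 over -0.0198 to 0.352 on its called probe. Its level means were -0.240 in 58 animals, -0.0166 in 135 and 0.140 in 55, with a within-level SD of 0.0566 and a BIC gain of 34.5. High over low was 2.40-fold. Zfp871 had level means of -0.257 in 72 animals, 0.0604 in 126 and 0.198 in 50, a within-level SD of 0.0943 and a BIC gain of 31.6. Its high level was 2.85-fold its low one, the widest step of the 3 probes, and its low level lay far from the other levels, which were close together. Of the 248 animals, 58 were low for Zfp934, 70 for Zfp273 and 72 for Zfp871. With such shares, most animals low for one gene are not low for another where the genes are unrelated. The overlap was not tested. Of the 58 animals low for Zfp934, 18 were low for Zfp273 and 15 for Zfp871. Of the 70 low for Zfp273, 25 were low for Zfp871. Over all levels, Zfp934 and Zfp273 were at the same level in 111 of 248 animals, Zfp273 and Zfp871 in 109, and Zfp934 and Zfp871 in 90.

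**Figure D2:**
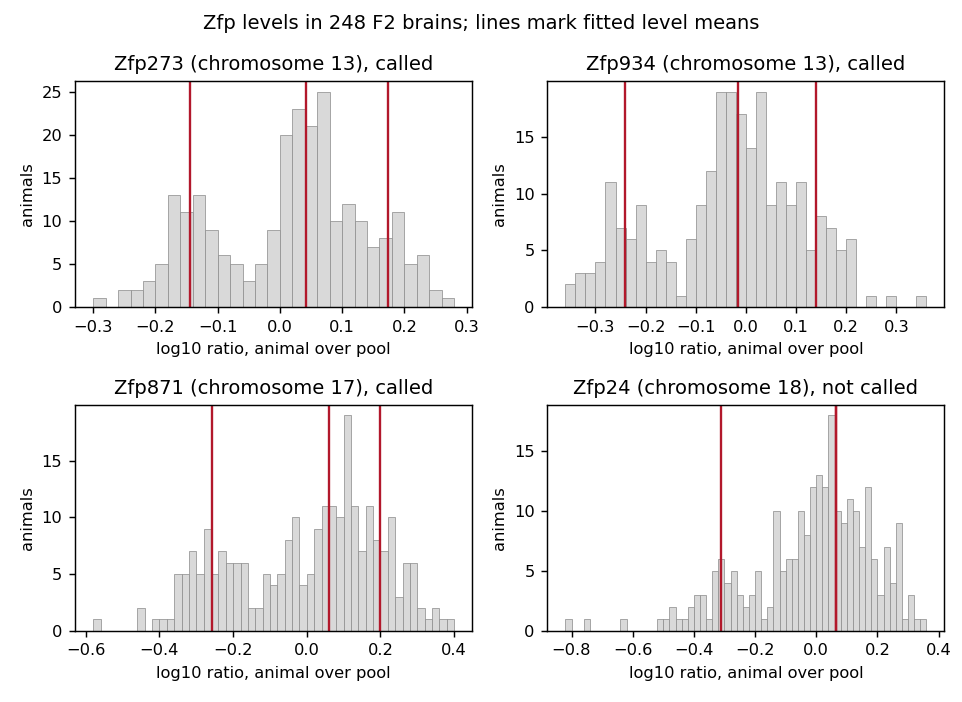
Number of animals by log10 ratio of animal over pool for the called probes of Zfp273, Zfp934 and Zfp871 and for Zfp24, over 248 animals; vertical lines mark the fitted level means. For Zfp273, Zfp934 and Zfp871 the fit placed animals in each of its 3 levels. For Zfp24 it placed 53 animals in a low level at -0.311 and 195 in one level at 0.0657.

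A further 4 of the 151 Zfp probes met the conditions on BIC and distance but not that on kurtosis, as did 5.16% of all autosomal probes with 1 symbol. In each fit 2 of the 3 means fell together. Zfp24 (chromosome 18) had 53 low animals, 2.38-fold under the other 195. Zfp521 (chromosome 18), a paralog of Zfp423 with a role in neural differentiation, had 31 low animals, 1.80-fold under the other 217. Zfp638 (chromosome 6), an RNA-binding protein, had 28 low animals, 1.56-fold under the other 220. Zfp287 (chromosome 11) had 15 high animals, 1.25-fold over the other 233. A fit with 2 levels was not run. After removal of 5 principal components Zfp24 was also called discrete.

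The genes that shared these levels were sought among all 11486 genes by absolute r with the called probe, which served only to rank them, since values in separate levels give no single correlation. For Zfp871, 9 of the 10 most similar genes lay on chromosome 17 and 1 was not placed. The nearest was its neighbour in the order of measured genes, Cyp4f14, a cytochrome P450 that was itself called discrete. Zfp871 and Cyp4f14 were at the same level in 201 of 248 animals and at opposite levels in 1. Decr2, a peroxisomal reductase on the same chromosome, shared the level in 182 animals. For Zfp273, 6 of the 10 were on chromosome 13 and 1 was not placed, led by Habp4 with Zfp369 among the 3 closest, known in mice as a protein that binds the neurotrophin receptor p75. Neither of these was called discrete.

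Zfp934 did otherwise. The annotation places it on chromosome 13, but 0 of its 10 most similar genes lay there and 10 of 10 lay on chromosome 4. They were led by the chemokine genes Ccl21a and Ccl27a and by Dnajb5, which ran in the opposite direction. Zfp934 was at the same level as Ccl27a in 217 of 248 animals and at the opposite level in 0. Of its 58 low animals 56 were low for Ccl27a, and of its 55 high animals 46 were high. Of the 3 Ccl21a probes 2 were called discrete, and they shared the level of Zfp934 in 205 and 217 animals, again with 0 opposite. Whether the probe also binds a transcript from chromosome 4 was not tested, and probe sequences are not used here.

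For Zfp24, 9 of the 10 most similar genes were on chromosome 18 and 1 was not placed. The first was Hbegf, a growth factor of the EGF family, called discrete with 3 levels. Of the 53 low Zfp24 animals 45 were low for Hbegf, 7 middle and 1 high. The protocadherin Pcdhb2, also called discrete, was low in 45 of them and high in 0. The low group of Zfp24 was thus largely the low group of both genes.

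For the further genes among the 10 of largest SD the single closest gene lay on another chromosome. Zfp574 followed Nfix, a transcription factor gene on chromosome 8, with r = 0.93 and rho = 0.93 (permutation p = 1e-05 for both, two-sided, n = 248). Zfp758 followed Gm14288 on chromosome 2 with r = 0.92 and rho = 0.92 (permutation p = 1e-05 for both), and Zfp97 followed the same gene with r = 0.91 and rho = 0.90 (permutation p = 1e-05 for both). Zfp423 followed Ttc28 on chromosome 5 with r = 0.87 and rho = 0.85 (permutation p = 1e-05 for both). Of the 10 most similar genes, 0 lay on the own chromosome for Zfp574, 2 for Zfp758, 5 for Zfp97 and 3 for Zfp423, for the last 2 genes more than on any other chromosome. In this order r was 0.927, 0.914, 0.907 and 0.860 without the 2 animals farthest from the median. Zfp800 followed Aasdhppt on chromosome 9 with r = 0.90 and rho = 0.83, and r = 0.859 without the 2 farthest animals. Zfp219 followed Drg2 on chromosome 11 with r = 0.80 and rho = 0.77, and r = 0.761 without them. Zfp957 followed Fosl1 on chromosome 19 less closely, with r = 0.59 and rho = 0.39, and r = 0.416 without them. These partners were picked from all genes for their r, so the values describe likeness and are no test of it. The p printed is the smallest that 100000 permutations can give.

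Probes of the same gene did not always move together. The 15 Zfp genes with several probes gave 24 pairs, with a median r of 0.18, from -0.13 for Zfp59 to 0.97 for Zfp148, and 8 pairs reached 0.5. The other probes of Zfp273, made from the same accession as the called one, had SDs of 0.0475 and 0.0508 and were not called. Within the low, middle and high levels of the called probe their r with it ran between -0.03 and 0.29. The levels of Zfp273 were thus seen by 1 probe of 3. The Zfp934 probes did move together, as one of the pairs that reached 0.5. The second Zfp934 probe was still not called, although its SD was 0.148. Within the levels of the called probe its r was 0.26 in low, 0.60 in middle and 0.77 in high animals.

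The promoters of 2 of the discrete genes are shown for their letters near the start of transcription. RefSeq promoters of assembly GRCm38.p6, 250 bases before to 50 after the annotated start, were at hand for 112 of the 137 Zfp genes. Capitals mark matches to the CAAT box letters (CCAAT), to the GC box letters (GGGCGG) and to the TATA box letters (TATAAA) on either strand. The promoters are those of Zfp871 (chr17:32788238-32788537, minus strand) and Zfp273 (chr13:67813566-67813865, plus strand).
Zfp871: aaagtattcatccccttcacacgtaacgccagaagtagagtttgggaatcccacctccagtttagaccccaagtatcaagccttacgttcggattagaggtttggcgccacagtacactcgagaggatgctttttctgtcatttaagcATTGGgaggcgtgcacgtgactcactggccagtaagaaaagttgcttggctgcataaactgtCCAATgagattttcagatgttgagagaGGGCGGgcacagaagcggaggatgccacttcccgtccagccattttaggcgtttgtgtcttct
Zfp273: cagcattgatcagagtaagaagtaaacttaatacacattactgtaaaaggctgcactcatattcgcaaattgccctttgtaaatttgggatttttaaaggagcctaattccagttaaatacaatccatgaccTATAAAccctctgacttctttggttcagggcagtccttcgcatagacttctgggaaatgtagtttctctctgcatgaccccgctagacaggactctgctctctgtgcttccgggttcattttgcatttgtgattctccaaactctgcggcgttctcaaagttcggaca
Zfp871 holds the CAAT box letters 2 times and those of the GC box once, and Zfp273 holds those of the TATA box once and neither of the others. Of 112 Zfp promoters 44 (39.3%) held the CAAT box letters, against 37.9% of all 27025 promoters of the same length. The GC box letters were in 56 (50%), against 35.9% of all, and those of the TATA box in 7 (6.25%), against 14.2%. The median number of CG dinucleotides was 17 in Zfp promoters and 7 in all of them. The motifs are matches of letters and no measured sites.

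Cluster neighbours were compared over the 248 animals. Measured autosomal genes up to 5 places apart in the order of measured genes gave 52040 pairs, of which 78 joined 2 Zfp genes. At a Benjamini-Hochberg adjusted p under 0.05 for Pearson's r (two-sided, over all 52040 pairs), 58 of 78 Zfp pairs passed (74.4%), against 56.2% of all neighbour pairs. Of these, 48 were positive, against a background of 33.1% positive calls, and 10 were negative, against 23.1%. Without animals 178, 213 and 336, 56 of 78 passed, against 53.2%. The 1161 pairs of a Zfp gene with another gene passed in 57.1%. Among 248 animals weak correlations pass, so the size of r is given as well. Of the 78 pairs 4 held Zfp273 or Zfp871, whose called probes lie in separate levels. For Zfp273 the pairs used the mean of its 3 probes, and levels were not fitted to that mean.

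An r of at least 0.5, a threshold chosen after the values were seen, was reached by 30 of 78 Zfp pairs (38.5%), against 4.76% of all neighbour pairs and 5.17% of pairs of a Zfp gene with another gene. The median r was 0.30, against 0.03 over all neighbour pairs. Among adjacent measured genes 12 of 27 Zfp pairs reached it, against 5.47% of all adjacent pairs. The count was 29 of 78 without animals 178, 213 and 336. After removal of the first 5 principal components of all probes it was 6 of 78, against 1.52% of all pairs, with a median r of 0.17 for the Zfp pairs.

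**Figure D3:**
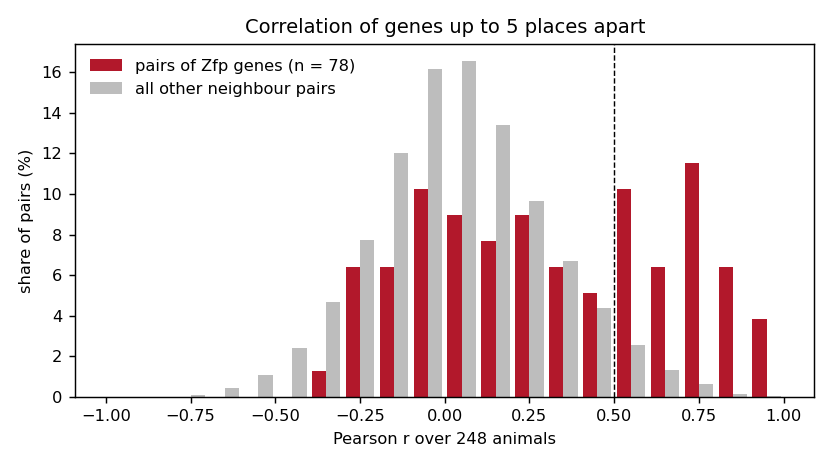
Share of pairs (%) by Pearson r over 248 animals, for neighbour pairs of 2 Zfp genes and for all other neighbour pairs up to 5 places apart; the dashed line marks 0.5. Of the 78 Zfp pairs 30 lie at or above 0.5, most of them on chromosome 17.

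The high correlations were mainly those of chromosome 17. There 23 of 24 Zfp pairs passed the test, all with positive r, and 21 had an r of at least 0.5. On chromosome 11 it was 5 of 5, with 3 over 0.5. On chromosome 7, which has the most Zfp genes, 19 of 32 pairs (59.4%) passed, 12 positive and 7 negative, and 3 (9.38%) reached 0.5. Without chromosome 17, 35 of 54 Zfp pairs (64.8%) passed and 9 (16.7%) reached 0.5. Of all neighbour pairs 56.2% passed, 33.1% with positive and 23.1% with negative r, and 4.76% reached 0.5. The share that passed on chromosome 7 was near that of all pairs. Likeness was thus unequal between clusters.

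On chromosome 17 the genes Zfp54, Zfp51, Zfp53, Zfp52, Zfp994, Zfp758 and Zfp40 occupy consecutive places among measured genes. Their 21 pairs had a median r of 0.77, from 0.46 to 0.93, with 0 negative. Zfp53 ran from -0.354 over 0.0274 to 0.186 and Zfp994 from -0.551 over 0.0262 to 0.294. This pair had the highest r of all Zfp neighbours, 0.93 (rho = 0.91, adjusted p = 3.06e-105; permutation p = 1e-05 for both), and 0.92 without the 2 farthest animals. The animals ordered by one gene kept nearly that order by the other, and the steps of Zfp994 were the larger ones, with an SD of 0.113 against 0.0680 for Zfp53.

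The next pairs followed closely. Zfp51 with Zfp994 had r = 0.92 and rho = 0.91, Zfp51 with Zfp53 r = 0.88 and rho = 0.88, and Zfp54 with Zfp51 r = 0.84 and rho = 0.83 (permutation p = 1e-05 for each). Zfp994 with Zfp758, Zfp51 with Zfp758, Zfp54 with Zfp994 and Zfp54 with Zfp53 had r between 0.79 and 0.84. Zfp52 was least like the others, with r from 0.46 with Zfp758 to 0.64 with Zfp51. After removal of 5 principal components Zfp53 with Zfp994 kept r = 0.50, Zfp51 with Zfp53 0.55, Zfp51 with Zfp994 0.54, and Zfp53 with Zfp758 only 0.12.

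Elsewhere on chromosome 17 the adjacent genes Zfp119a and Zfp959 had r = 0.90 and rho = 0.90 (adjusted p = 4.13e-90; permutation p = 1e-05 for both), and 0.89 without the 2 farthest animals. Zfp119a ran from -0.326 over 0.0252 to 0.222, and Zfp959 from -0.570 over 0.0253 to 0.209. Animal 178 held the lowest value of both, and r was 0.91 without animals 178, 213 and 336. Without 5 principal components r was 0.40. On chromosome 11 Zfp2 and Zfp354b had r = 0.81 and rho = 0.77 (adjusted p = 4.80e-56; permutation p = 1e-05 for both). Without the 2 farthest animals their r was 0.75, and Zfp354a correlated with both at 0.74 and 0.73.

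**Figure D4:**
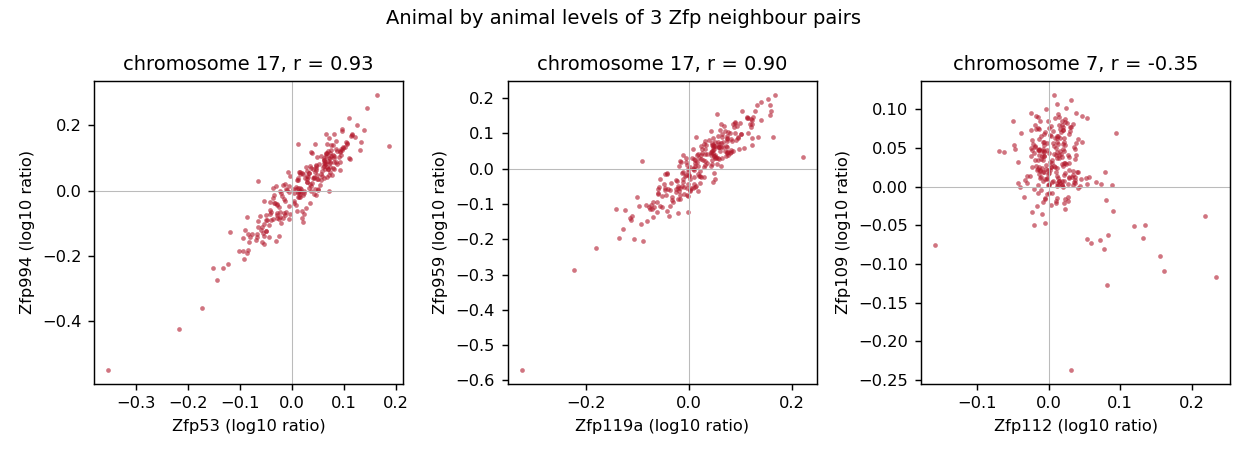
Log10 ratios of 248 animals for Zfp53 against Zfp994 and Zfp119a against Zfp959 on chromosome 17 and for Zfp112 against Zfp109 on chromosome 7, 1 point for each animal. The first pair of genes rises together (r 0.93), as does the second (0.90), while the third (-0.35) spreads as a cloud with a tail of few animals.

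The promoters of these pairs are printed to show how alike neighbouring copies can be, from chr17:55878904-55879203 (minus strand, Zfp119a), chr17:55891843-55892142 (plus strand, Zfp959), chr17:21488738-21489037 (plus strand, Zfp53) and chr17:22225565-22225864 (minus strand, Zfp994), with the same capitals as above.
Zfp119a: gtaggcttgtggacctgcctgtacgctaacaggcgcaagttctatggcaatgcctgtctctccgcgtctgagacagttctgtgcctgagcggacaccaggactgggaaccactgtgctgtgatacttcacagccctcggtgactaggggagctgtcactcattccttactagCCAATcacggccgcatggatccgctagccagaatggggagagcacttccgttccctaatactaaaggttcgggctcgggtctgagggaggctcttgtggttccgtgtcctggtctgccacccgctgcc
Zfp959: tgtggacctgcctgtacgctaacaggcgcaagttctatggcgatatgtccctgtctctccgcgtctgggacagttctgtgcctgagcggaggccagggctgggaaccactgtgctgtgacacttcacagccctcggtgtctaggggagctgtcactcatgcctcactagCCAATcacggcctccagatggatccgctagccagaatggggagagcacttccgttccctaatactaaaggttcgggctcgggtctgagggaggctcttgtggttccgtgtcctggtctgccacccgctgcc
Zfp53: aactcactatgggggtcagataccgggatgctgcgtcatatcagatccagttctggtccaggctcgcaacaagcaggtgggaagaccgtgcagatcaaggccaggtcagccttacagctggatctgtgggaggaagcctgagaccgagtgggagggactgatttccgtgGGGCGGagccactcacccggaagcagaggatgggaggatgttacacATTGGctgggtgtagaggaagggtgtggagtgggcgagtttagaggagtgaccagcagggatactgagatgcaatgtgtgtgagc
Zfp994: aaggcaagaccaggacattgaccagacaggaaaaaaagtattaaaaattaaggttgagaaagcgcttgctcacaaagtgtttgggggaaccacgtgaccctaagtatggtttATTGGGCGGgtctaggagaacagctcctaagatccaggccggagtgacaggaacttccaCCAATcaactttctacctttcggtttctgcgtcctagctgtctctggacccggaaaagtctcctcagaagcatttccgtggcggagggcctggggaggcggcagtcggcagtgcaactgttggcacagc
Zfp119a and Zfp959 are transcribed from opposite strands and their promoters were 96.2% identical over 293 aligned bases, with 1 CAAT box match each. Those of Zfp53 and Zfp994 were 61.6% identical over 250 bases, close to the median of 62.0% over 59 neighbour pairs and of 60.3% over 98 pairs of Zfp genes on different chromosomes, where the highest was 69.2%. In Zfp994 one of the 2 CAAT box matches overlaps the GC box match. A high r was thus seen with both near-identical and unlike promoters. Cross-hybridisation between such copies was not tested.

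The cluster of chromosome 7 looked different. Zfp180, Zfp112, Zfp235, Zfp111, Zfp109, Zfp108, Zfp93, Zfp94 and Zfp428 lie within 13 places, and their 36 pairs had a median r of -0.02, from -0.52 to 0.73, with 20 negative. Zfp109 and Zfp94 had r = 0.73 and rho = 0.65, and 0.50 without 5 principal components. Zfp111 was like both, at 0.56 with Zfp109 and 0.52 with Zfp94. Zfp112 ran against Zfp109 with r = -0.35, rho = -0.17 and r = -0.29 without the 2 farthest animals (permutation p = 1e-05 for r and 0.00696 for rho), and with r = 0.02 after removal of 5 principal components. Over the 36 pairs that removal gave a median r of 0.12 with 11 negative, and over the 21 pairs of the chromosome 17 cluster a median of 0.31 with 0 negative, so the clusters lay closer together. The members of both clusters were listed after their values were seen, and Zfp112 with Zfp109 was named for its low r.

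**Figure D5:**
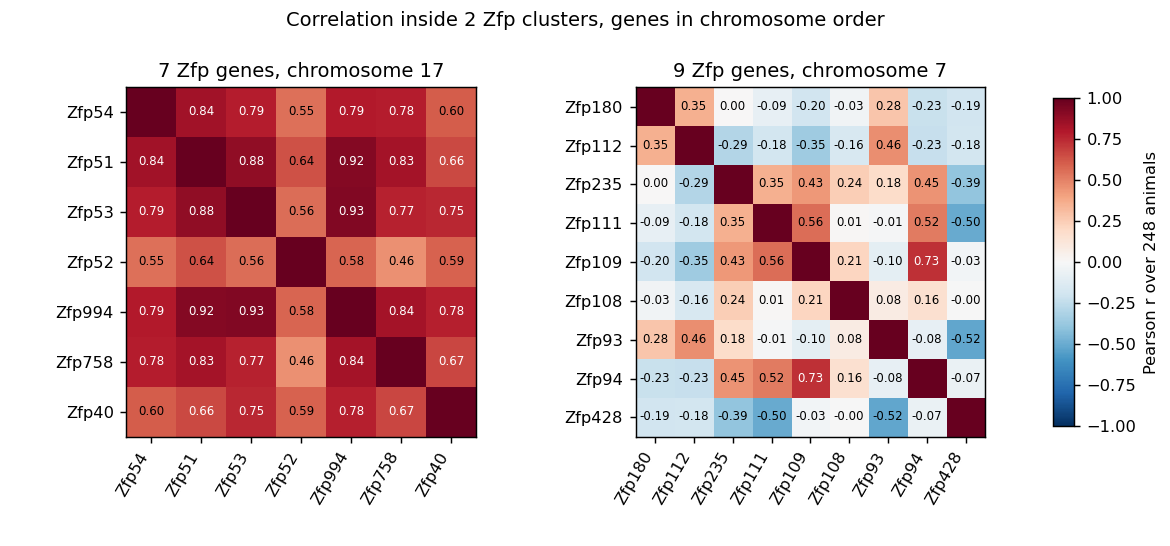
Pearson r over 248 animals for each pair of the 7 Zfp genes of a cluster on chromosome 17 and of the 9 Zfp genes of a cluster on chromosome 7, in chromosome order; red is positive and blue negative. The 21 pairs of chromosome 17 lie between 0.46 and 0.93, and those of chromosome 7 between -0.52 and 0.73.

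The smallest correlations were also on chromosomes 7 and 13. Zfp180 and Zfp235 had r = 0.00146 (rho = -0.03; permutation p = 0.981 for r and 0.651 for rho), Zfp369 and Zfp87 0.00590 and Zfp111 and Zfp108 0.0119. For Zfp180 and Zfp235, removal of 5 principal components gave r = 0.52. The promoters of Zfp111 and Zfp108 were 77.4% identical over 235 bases, the highest after those of Zfp119a with Zfp959 and of Zfp53 with Zfp52.

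High correlation was not limited to neighbours. Of 7899 pairs of Zfp genes on different chromosomes 9.49% had an r of at least 0.5, as had 11.1% of 669 pairs on the same chromosome more than 5 places apart, against 38.5% of the 78 neighbours. Zfp825 (chromosome 13) with Zfp994 had r = 0.92 and Zfp644 (chromosome 5) with Zfp53 0.91. The farthest in the other direction was Zfp553 (chromosome 7) with Zfp758, at -0.85. The 7 genes of the chromosome 17 cluster reached 0.5 in 22.4% of their 805 pairs with Zfp genes on other chromosomes, with a median of 0.14. After removal of 5 principal components 0.684% of the pairs on different chromosomes and 6 of the 78 neighbours were left at 0.5 or more. All of these pairs share arrays and genes, so they are given as descriptions.

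The animal number is the only order the labels hold, and more Zfp genes rose than fell along it. By limma with Benjamini-Hochberg adjustment over 11486 genes, 44 of 137 Zfp genes had a trend. Of these, 33 rose with the animal number, against a background of 6.44%, and 11 fell, against 10.3%. Zfp24 rose by 0.0347 ± 0.0118 per 100 animals (SE; limma adjusted p = 0.0256), Zfp758 by 0.0315 ± 0.00717, Zfp97 by 0.0277, Zfp958 by 0.0266 and Zfp959 by 0.0243. The steepest falls were those of Zfp423, at -0.0234 ± 0.00799 (limma adjusted p = 0.0267), Zfp362 at -0.0220, Zfp574 at -0.0216, Zfp704 at -0.0132 and Zfp36l1 at -0.0132. Over all genes, falls were the more frequent. With animal 144 included Zfp423, Zfp574 and Zfp36l1 no longer passed (limma adjusted p between 0.0647 and 0.0788), and Zfp574 also did not pass without animals 178, 213 and 336 (0.0631). Without these 3 animals 47 Zfp genes had a trend, against 20.8% of all genes. What the number stands for is not given. With a cubic curve of the number removed 30 of 78 neighbour pairs had an r of at least 0.5.

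Zfp genes also moved with marker genes of cell types. A whole brain can hold fewer cells of a type or less RNA per cell, and these cannot be told apart. Scores were means of z values over the measured markers of a list, and each gene was fitted on each of the 10 scores that formed no clusters, by limma with adjustment over 11486 genes. For the microglia score, from 6 of 7 markers, 28 Zfp genes were higher and 68 lower of 137, against backgrounds of 32.5% and 27.5%. For the endothelium score, from 6 of 6, 27 were higher and 63 lower, against 28% and 23.9%. For meninges and fibroblasts, from 7 of 7, 16 were higher and 62 lower, against 19.6% and 15.2%. In each of these lists more Zfp genes fell than rose as the markers rose, whereas over all genes rises were the more frequent. Without animals 178, 213 and 336 the counts of higher and lower were 23 and 68 for microglia, 27 and 63 for endothelium and 17 and 62 for meninges and fibroblasts.

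The slopes give the size, in log10 ratio per SD of the score. Zfp97 had -0.0743 ± 0.00629 on microglia (SE; limma adjusted p = 8.98e-24), Zfp758 -0.0688 and Zfp433 -0.0681. On endothelium Zfp423 ran the other way, at 0.0693 ± 0.00754 (limma adjusted p = 1.07e-15), with Zfp574 at 0.0527 and Zfp758 at -0.0510. On meninges and fibroblasts Zfp758 had -0.0406, Zfp39 -0.0346 and Zfp219 0.0358. Zfp423 and Zfp574 also led the choroid plexus score, at 0.0445 and 0.0364, followed by Zfp521 at 0.0321. On that score 18 of 137 genes were higher and 35 lower, against 18.2% and 18.4%, and the total of 38.7% was near the 36.5% of all genes. The same few widely varying genes led several scores. Genes were ordered by slope, which grows with a gene's own SD, so this order favours widely varying genes.

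For oligodendrocytes, from 6 of 8 markers, 15 Zfp genes were higher and 43 lower, against 22.3% and 19.3%. The total of 42.3% was near the 41.6% of all genes. The largest slope was that of Zfp871, 0.0645 ± 0.0119 (limma adjusted p = 2.02e-06). Zfp958 had -0.0422 ± 0.00517, with a smaller p (limma adjusted p = 1.45e-12), and Zfp758 had -0.0400. The values of Zfp871 lie in separate levels, and 9 of its 10 most similar genes lay on chromosome 17. Whether its slope on this score follows those levels was not tested. Zfp24, whose loss is known to block myelination in mice, had -0.0261 ± 0.0127 and did not pass (limma adjusted p = 0.0879). For oligodendrocyte precursors 31 were higher and 35 lower, against 30.8% and 25.5%. Together these are 48.2% of the Zfp genes, below the 56.3% of all genes. Zfp36l1 had the largest slope, 0.0367 ± 0.00416 (limma adjusted p = 5.50e-15), with Zfp369 at -0.0265 and Zfp180 at -0.0262. For the immediate early genes 8 were higher and 28 lower, against 7.91% and 6.96%, led by Zfp521 at -0.0302, Zfp97 at -0.0277 and Zfp959 at -0.0271. With a cubic curve of the animal number in the fit it was 6 higher and 12 lower, against 3.52% and 3.20%.

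Markers of lung and of blood were scored as well. For the lung score 20 were higher and 34 lower, against 20.7% and 18.4%. Together these are 54 of 137, near the 39.1% of all genes, with Zfp800 at -0.0295, Zfp386 at -0.0294 and Zfp369 at 0.0279. Without the 12 arrays of largest SD over probes 9 were higher and 9 lower on lung, against 8.72% and 8.28%, and without animals 178, 213 and 336 it was 13 and 24, against 13.9% and 13.0%. For neutrophils limma called 0 higher (8 at an unadjusted p under 0.05) and 8 lower, against 1.33% and 1.11%. The lower genes were led by Zfp248 at -0.0192, Zfp354b at -0.0174 and Zfp772 at -0.0143. Without animals 178, 213 and 336 limma called 1 on neutrophils, against 0.792% of all genes. Without the 12 arrays it was 1, against 0.827%, so in both runs the Zfp share was near that of all genes. For red cells 1 was higher, Zfp35 at 0.0125, and 1 lower, Zfp598 at -0.0144, against 0.435% and 0.418%. On red cells limma called 0 without the 12 arrays (26 at an unadjusted p under 0.05), against 0.479% of all genes. With the cubic curve it called 0 (21), against 0.514%, and without animals 178, 213 and 336 it called 1, against 0.47%. The part of cell types in the correlations between Zfp genes was not tested.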

How the data were processed

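The authors' deposited values are log10 ratios of animal (Cy3) to pool (Cy5), 1 per probe and array, for 249 arrays, and per the labels each array holds 1 animal. Scanner, background treatment and dye normalization: not given in the sources used here. Base and direction were read from Y-linked transcripts, whose upper components lay at 0.284 and 0.302, near the log10 of 2 (0.301). Array medians ran from -0.00627 to 0.0250, and how the arrays were centred is unknown. There are no replicate arrays, the number of arrays limits the precision, and signal over background is unknown.

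Animal 144 was left out. Probes measured on at least 90% of arrays were used, gaps took the probe's mean, and probes of a gene were averaged. Symbols, chromosomes and gene order came from GRCm38.p6, to which all 137 Zfp genes matched. The tests were run with Python 3.11.15, numpy 2.4.6, scipy 1.17.1, numba 0.67.0 and limma 3.58.1 in R 4.3.3, and promoters were aligned with Biopython 1.88. They were tested on simulated data, in which the rule for discrete levels missed most probes whose levels were only moderately apart. The spread, level, neighbour, trend and marker score analyses were repeated under other settings, which the closing section gives.

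The named genes are those with a discrete probe, the 15 of largest and 5 of smallest SD, the 10 neighbour pairs of largest and the 3 of smallest absolute r, the Zfp36 genes, up to 5 trends in each direction, up to 3 genes for each marker list and the closest partners of the 10 most variable genes. The list scores of neurons, cerebellum, pituitary, olfactory bulb, striatum, astrocytes and interferon response formed clusters and were not used. Members and lists were chosen with earlier results of these data known. Where the title and source name of 1 sample disagreed on the animal's number, that of the source name was kept.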

Additional observations from a re-analysis of the deposited data

How the results depend on the processing

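Of the counts that answer a comparison, 40 of 45 recomputed under other settings stayed within 1.5 times the reported count. After removal of 5 principal components 6 Zfp probes had an SD of at least 0.1, in place of 22 (against 4.28% of all probes), and 6 neighbour pairs an r of at least 0.5, in place of 30. Without the kurtosis condition 7 Zfp probes were called discrete, in place of 3, against 6.42% of all probes. Among adjacent genes only, 18 of 27 pairs (66.7%) passed the test, against 58% of all adjacent pairs. Of the 27, 12 had an r of at least 0.5, against 5.47%. Both counts are lower since fewer pairs were tested. The cause of the other changes was not tested. For single genes and pairs, 184 of 192 recomputed values kept their side of the threshold, 7 no longer passed and 1 now passed. Of these 184, 8 changed sign, all for the 3 pairs of smallest r, which passed the test neither before nor after, and 176 kept their sign. The 192 include BIC gains of the 3 discrete probes with only a threshold changed, which repeat the main fit. Without the kurtosis condition these 3 probes could not lose their call. Of 35 counts for single marker lists 8 moved by more than 1.5 times, those of red cells, neutrophils, lung and immediate early genes. With animal 144 included the red cell count was 9, against 12.7% of all genes, in place of 2, against 0.853%. The r threshold, its settings and the runs without animals 178, 213 and 336 were chosen after seeing the data. No paired analysis was possible because the animals form 1 group. The ratios do not tell how far a probe lay above background.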

Other observations

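The array of animal 144, which is not part of the counts above, lay outside the range of the other 248 animals for 29 of 137 Zfp genes (21.2%), 10 above and 19 below, against 40.4% of the 11484 genes measured on it. Of the 4 Zfp36 genes 2 were above the others. Zfp36 stood at 0.597 on it, against -0.0675 to 0.117 in the other animals, and Zfp36l1 at 0.923, against -0.498 to 0.122, while Zfp36l2 and Zfp36l3 stayed within their ranges. Zfp423 stood at -0.960, against -0.457 to 0.309, and Zfp39 at -0.875, against -0.342 to 0.228.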
